A study of Mus musculus with 6 samples.

Results

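Activins are dimers of inhibin beta subunits, and the genes described here are the ones that make, bind and receive them in mouse skull bone. The 10 genes are Inhba and Inhbb (the beta subunits), Fst, Fstl3 and Fstl1 (follistatin and follistatin-like proteins) and Acvr2a, Acvr2b, Acvr1b, Acvr1 and Acvrl1 (receptors), of 23358 genes in the deposited table. They were chosen by family name, with the differences between the groups in these same 6 libraries already known, so every cKO against WT value below is a description of that contrast and supports nothing further. All 10 have 1 row each in the table, and all 10 passed the low-count filter, which left 16089 genes in the fit.

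The libraries are RNA-seq of total RNA from the calvaria, or skull roof, of mice aged 2 to 3 days. In 3 libraries the label is an Ezh2 conditional knockout (cKO; Ezh2_cKO-Osx, libraries 8, 10 and 37), and in 3 it is wild type (WT; Ezh2_WT_Osx, libraries 14, 27 and 29). Ezh2 is the methyltransferase of Polycomb repressive complex PRC2, and Osx stands for osterix, now Sp7, which osteoblast precursors need to mature. The name points to a knockout aimed at the osteoblast lineage, while the bone also holds other cells. The labels do not say which Cre transgene was used, whether the WT animals carried it, or whether a library is 1 animal. All bones had been treated with collagenase type II (2 mg/ml) and trypsin (0.005%) for 20 minutes and then frozen. The p-values set the difference between the groups against the scatter of these libraries. As the labels do not say whether a library is 1 animal, that scatter may be in part technical.

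In this pathway an activin dimer binds a type II receptor (Acvr2a or Acvr2b), which recruits and activates the type I receptor Acvr1b (ALK4), and the signal passes through Smad2 and Smad3. Follistatin and Fstl3 are secreted proteins that wrap around activin and keep it from its receptors. Acvr1 (ALK2) and Acvrl1 (ALK1) are type I receptors for BMP-type ligands that signal through Smad1, Smad5 and Smad9, and Acvrl1 is best known from endothelium. Activin is stored in bone matrix and acts on both osteoblasts and osteoclasts, and activating mutations of ACVR1 cause heterotopic bone formation.

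Gene totals were between 60449016 and 95439578 counts per library, lower on average in cKO (60449016 to 71748348) than in WT (68260154 to 95439578). Ezh2 itself, whose deleted part is not given in the labels and whose counts cover the whole gene, was 20.9 ± 0.679 CPM in WT and 19.9 ± 0.690 in cKO (SD, n = 3 each), which does not check the labels. CPM are counts scaled to library size with TMM factors, and cKO means the libraries so labelled. Of 12 osteoblast markers all had counts in all 6 libraries, with a summed level of 132548 to 180039 CPM in WT and 99144 to 134960 in cKO. Most of this sum was Col1a1 (mean 81428 CPM in WT and 57128 in cKO) and Col1a2 (61609 and 51759). Of the 12 markers, 0 rose and 1 fell, Sp7 itself (log2 -0.37 ± 0.09, edgeR adjusted p = 0.0211). The log2 value was positive in 4 and negative in 8. At an unadjusted p under 0.05 there were 3, Sp7, Col1a1 (-0.51 ± 0.20, adjusted p = 0.115) and Ibsp (0.34 ± 0.12, adjusted p = 0.0745). Of 9 suture mesenchyme markers 1 rose, the Wnt target Axin2 (0.50 ± 0.06, adjusted p = 0.00166), and 0 fell, with a summed level of 4812 to 5424 CPM in WT and 4383 to 6062 in cKO. Chondrocyte markers varied most, from 2230 to 8301 CPM in WT and from 790 to 6465 in cKO. Early response genes, which rise within minutes to hours of a stimulus or of tissue handling, were lower in cKO: 19 of 20 fell, and their summed level was 5716 to 6453 CPM in WT against 3102 to 3967 in cKO. The markers named in this paragraph were chosen after their values were seen. The part of these marker differences in the results below was not tested.

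The promoters of the members differ in their content of CpG, the dinucleotide that marks the promoter islands where Polycomb complexes are often found. RefSeq sequence of build GRCm38.p6, the assembly that mm10 names, was matched for 8 of the 10 genes, and the 250 bases before the start are shown for 3 of them: the 2 activin subunits, which contrast, and Acvr1b, the receptor that rose. CpG dinucleotides are in capitals. Inhba lies at chr13:16011601-16011850 (plus strand), Inhbb at chr1:119422249-119422498 (minus strand) and Acvr1b at chr15:101173822-101174071 (plus strand).
Inhba: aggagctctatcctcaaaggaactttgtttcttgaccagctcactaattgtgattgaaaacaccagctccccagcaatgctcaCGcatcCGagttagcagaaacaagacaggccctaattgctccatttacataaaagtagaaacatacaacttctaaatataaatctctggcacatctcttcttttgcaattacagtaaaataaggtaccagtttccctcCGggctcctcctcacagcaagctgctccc
Inhbb: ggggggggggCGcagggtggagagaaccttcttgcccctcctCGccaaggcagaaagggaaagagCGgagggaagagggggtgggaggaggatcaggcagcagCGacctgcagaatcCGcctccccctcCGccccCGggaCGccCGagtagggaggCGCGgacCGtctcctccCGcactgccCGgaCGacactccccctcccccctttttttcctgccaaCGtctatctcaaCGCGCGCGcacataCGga
Acvr1b: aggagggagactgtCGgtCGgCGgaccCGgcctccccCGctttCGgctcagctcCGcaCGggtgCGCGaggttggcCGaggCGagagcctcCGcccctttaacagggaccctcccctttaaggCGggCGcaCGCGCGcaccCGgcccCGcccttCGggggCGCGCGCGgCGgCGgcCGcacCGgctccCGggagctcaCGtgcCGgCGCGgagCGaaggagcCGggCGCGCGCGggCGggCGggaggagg

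The Inhba window holds 3 CpG and 43.2% G and C, and the Inhbb window 21 CpG and 68%. Over 32851 RefSeq windows of the same length the median was 6 CpG and the quartiles 2 and 16. The receptor windows were the richest: 42 CpG in Acvr1b, 46 in Acvr1 and 49 in Acvr2a, where 99.1%, 99.7% and 99.9% of all windows hold fewer, and 24 in Acvr2b. Fstl3 holds 22 CpG and Fstl1 16. A TATA box core (TATAAA, either strand) was found in the Inhba and Fstl3 windows, against 12.4% of all windows. The AP-1 site TGANTCA, a sequence bound by Fos and Jun proteins, was in none of the 8 windows and in 6.75% of all windows, and the same held for the CRE, TGACGTCA, which is in 1.55%. The deposited table starts Inhba 2624 bases inside the RefSeq start, so this window is the promoter of the longer RefSeq model.

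Per length, Fstl1 was by far the most abundant of the 10. In RPKM as deposited, which divide by gene length and library total, it was 289 to 347 over the 6 libraries. Fstl1 is a secreted follistatin-like glycoprotein of mesenchymal cells that shares the follistatin domain but is not chiefly an activin trap. Next came the BMP-type receptors, Acvr1 at 16.9 ± 0.0627 RPKM in WT and 16.3 ± 1.58 in cKO, and Acvrl1 at 7.80 ± 0.297 and 8.76 ± 0.543. These 3 levels did not overlap with each other or with any other member in any library.

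The ligand, its trap and its receptors were all near each other and low. In WT the RPKM were 3.36 ± 0.753 for Inhbb, 2.99 ± 0.139 for Acvr2a, 2.98 ± 0.330 for Acvr1b, 2.69 ± 0.384 for Inhba and 2.56 ± 0.156 for Fst, and neighbours in this order did not differ beyond their spread. Fstl3 (1.70 ± 0.421) and Acvr2b (1.36 ± 0.0363) were lowest. In cKO the order among these low genes was Inhba (4.36 ± 0.283), Inhbb (4.32 ± 0.479), Fst (4.17 ± 0.158), Acvr1b (3.93 ± 0.399), Acvr2a (3.26 ± 0.179), Acvr2b (1.69 ± 0.310) and Fstl3 (1.25 ± 0.0325). Every cKO library had more Acvr2b than Fstl3 RPKM, and every WT library the reverse. Acvr2a exceeded Acvr2b in all 6 libraries, by a ratio of 1.53 to 2.39. The length used for Inhba is 1529 bases, 23.9% of its exons in GENCODE M21, and 43.3% for Acvr2b and 50.9% for Fst, against 100% for Inhbb. The order between genes therefore depends on those models. The length cancels in the comparison of groups, but which reads are counted still follows the model.

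**Figure D1:**
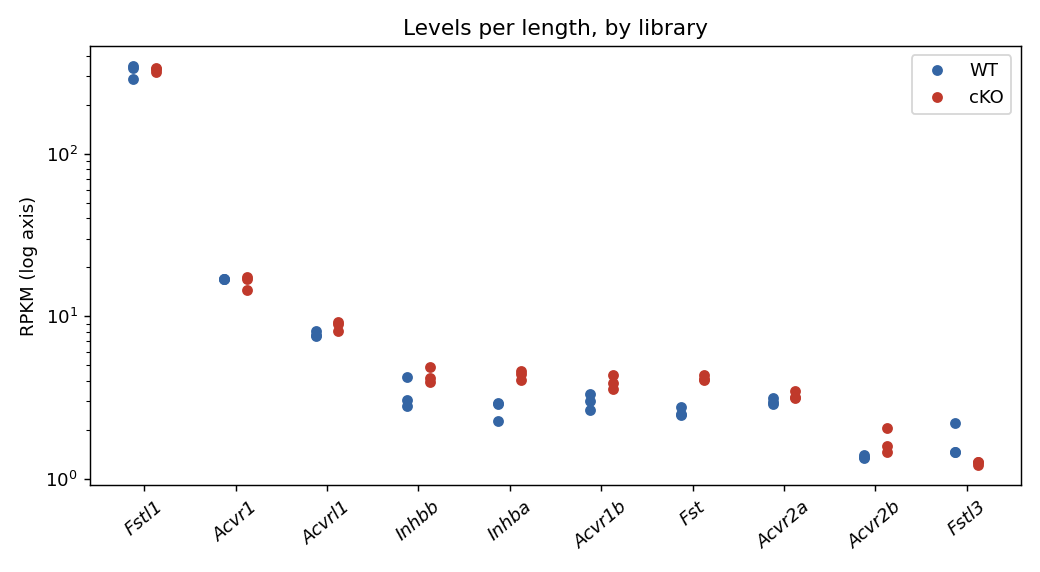
Deposited RPKM of the 10 genes (log axis) in each library, WT blue and cKO red, ordered by the mean over all 6 libraries. Fstl1 lies near 327 RPKM, Acvr1 and Acvrl1 follow, and the other 7 genes lie between 1.21 and 4.86.

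In cKO calvaria, the transcripts of the activin A subunit, of follistatin and of the activin type I receptor were each called higher. Of the 10 genes, 3 rose (Inhba, Fst and Acvr1b), 7 did not pass and 0 fell, with edgeR at an adjusted p under 0.05. Across all 16089 genes 12.4% passed, 5.96% higher and 6.45% lower; since this contrast was known when the genes were chosen, nothing is read from these shares side by side. At an unadjusted p under 0.05 there were 5 members, 4 higher and 1 lower, and DESeq2 and limma voom each called 3 higher and 0 lower. The groups did not overlap in 5 members, as in 34.6% of all genes. The median log2 fold change (cKO over WT throughout) was 0.23 over the members and 0.01 over all genes tested.

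Inhba (chromosome 13, 16014475 to 16027211, mm10), which encodes the subunit of activin A, was at 6.20, 4.41 and 6.09 CPM in WT 14, WT 27 and WT 29 and at 8.74, 8.80 and 9.20 CPM in cKO 8, cKO 10 and cKO 37. All cKO libraries were above all WT libraries, and the WT libraries were the more scattered, with WT 27 low. The means were 5.57 ± 1.01 and 8.92 ± 0.251 CPM, a 1.60-fold difference with a 95% confidence interval of 1.30 to 1.96 (log2 0.68 ± 0.13, standard error; edgeR adjusted p = 0.0108). Only the test against a fold change of 1.2 did not pass (adjusted p = 0.101). The counts behind these values are small, from 308 to 708 per library. Every deposited count is even, so a sequenced fragment may have added 2, and the fragments behind these counts may be fewer by that factor. GENCODE places B230303A05Rik and Gm48444 on the opposite strand across the gene, whose reads cannot be told apart from those of Inhba without strand.

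Fst (chromosome 13, 114452262 to 114458730), the activin-binding protein follistatin, was at 8.06, 7.36 and 8.81 CPM in WT 14, WT 27 and WT 29. In cKO 8, cKO 10 and cKO 37 it was at 13.5, 12.3 and 13.3 CPM. The groups were well apart, with the lowest cKO library above the highest WT library, and the spread within each was small. The means were 8.08 ± 0.725 and 13.0 ± 0.608 CPM, a 1.61-fold difference (1.39 to 1.87; log2 0.69 ± 0.10, edgeR adjusted p = 0.0028). Its log2 value was close to that of Inhba, well within the standard errors of both, and without WT 14 Inhba had the larger one (0.76 against 0.69). Fst was the only member that passed in all 16 alternatives, including the test against 1.2-fold (adjusted p = 0.0304); 5.07% of all genes had a larger absolute log2 fold change. Follistatin is also made by skeletal muscle, whose 10 markers summed to 11.6 to 12.9 CPM in WT and 13.4 to 14.8 in cKO. The largest part was Des, named after its values were seen, at 6.87 ± 0.533 CPM in WT and 8.23 ± 0.696 in cKO (log2 0.26 ± 0.11, edgeR adjusted p = 0.144). Tnnt3, next in level, was 2.79 ± 0.443 and 2.66 ± 0.129 CPM with overlapping groups, and the other muscle markers were lower still. None of the 7 muscle markers tested passed with edgeR, DESeq2 or limma voom (1 at an unadjusted p under 0.05), and their part in the Fst result was not tested.

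The ratio of Inhba to trap transcripts overlapped between the groups for follistatin and not for Fstl3, with Inhbb left out of both. The ratio of Inhba to Fst RPKM was 1.18, 0.916 and 1.06 in the WT libraries and 0.991, 1.09 and 1.06 in the cKO libraries, with means of 1.05 ± 0.130 and 1.05 ± 0.0503. The ratio of Inhba to Fstl3, the other activin trap, was 1.34, 1.55 and 1.99 in WT against 3.35, 3.49 and 3.65 in cKO. The first ratio overlapped between groups and the second did not. Both are ratios of transcript levels within a library and share the length models named above. No test was run on the ratios. They restate the values of the single genes, and the Fstl3 difference did not pass (edgeR adjusted p = 0.122).

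Acvr1b (chromosome 15, 101174125 to 101212601), the type I receptor through which activin reaches Smad2 and Smad3, was at 13.6, 13.9 and 11.9 CPM in WT 14, WT 27 and WT 29. It was at 16.5, 18.6 and 16.5 CPM in cKO 8, cKO 10 and cKO 37. The groups did not overlap, and the means of 13.1 ± 1.07 and 17.2 ± 1.18 CPM gave a 1.31-fold difference (1.15 to 1.50; log2 0.39 ± 0.09, edgeR adjusted p = 0.0189). The call passed without WT 14, WT 27 or cKO 37 and was lost without WT 29 (adjusted p = 0.079), cKO 8 (0.0559) or cKO 10 (0.0695), and in the test against 1.2-fold (0.435).

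**Figure D2:**
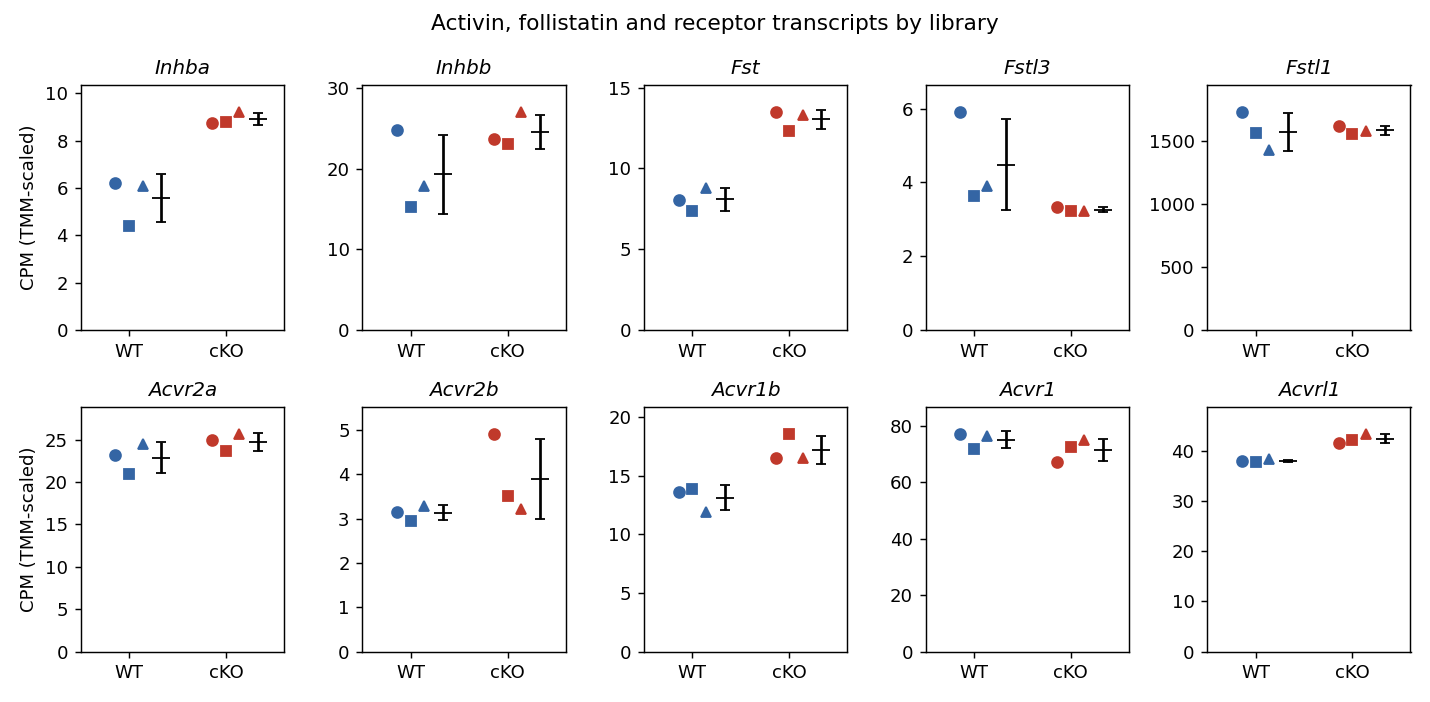
TMM-scaled CPM of the 10 genes in each library (circle, square and triangle are WT 14, 27 and 29 in blue and cKO 8, 10 and 37 in red) with the mean and SD of each group (n = 3). Inhba, Fst, Acvr1b and Acvrl1 are higher in all cKO libraries than in any WT library, and Fstl3 is lower.

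The other activin subunit and the other trap each turned on 1 WT library. Inhbb (chromosome 1, 119415465 to 119422248), the subunit of activin B, was at 24.8, 15.2 and 17.9 CPM in WT 14, WT 27 and WT 29 and at 23.7, 23.0 and 27.01 CPM in cKO 8, cKO 10 and cKO 37. WT 14 lay within the range of the cKO libraries and WT 27 and WT 29 below it. The difference of 0.35 ± 0.18 did not pass (edgeR adjusted p = 0.253), but without WT 14 it was 0.57 and passed (0.0155).

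Fstl3 (chromosome 10, 79777274 to 79782630), a follistatin-like trap of activin and myostatin, was at 5.90, 3.64 and 3.91 CPM in WT 14, WT 27 and WT 29. It was at 3.34, 3.22 and 3.22 CPM in cKO 8, cKO 10 and cKO 37, below every WT library and nearly identical to one another. The log2 value was -0.46 ± 0.18 (0.728-fold, 0.551 to 0.961; edgeR adjusted p = 0.122), the only negative one among the 5 members counted at an unadjusted p under 0.05. Without WT 14 it shrank to -0.21 (adjusted p = 0.42). Its end overlaps Prss57 on the opposite strand, and whether counting used strand is unknown, so reads of both genes cannot be told apart. The same limit holds for opposite-strand genes that overlap Fst (Gm47040), Acvr1 (Gm17409), Acvr2a (Orc4), Acvr2b (Gm47320) and Acvrl1 (Gm16031).

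Fstl1 (chromosome 16, 37777055 to 37836516) was at 1733, 1564 and 1431 CPM in WT 14, WT 27 and WT 29 and at 1625, 1558 and 1582 CPM in cKO 8, cKO 10 and cKO 37. The cKO libraries lay inside the WT range. The log2 value was 0.01 ± 0.10 with a 95% confidence interval of -0.20 to 0.22 (edgeR adjusted p = 0.952), and its sign changed without WT 29 or cKO 8 and with an offset for GC content and length. The ratio of Fstl1 to Fst RPKM within a library was 127 ± 19.2 in WT and 79.0 ± 2.43 in cKO (SD, n = 3 each).

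Neither type II receptor passed. Acvr2a (chromosome 2, 48814109 to 48903264) was at 23.2, 20.9 and 24.6 CPM in WT 14, WT 27 and WT 29 and at 25.0, 23.6 and 25.7 CPM in cKO 8, cKO 10 and cKO 37, with overlapping groups. Its log2 value was 0.11 ± 0.08 (-0.05 to 0.28, edgeR adjusted p = 0.356), which turned to -0.022 with the GC and length offset. Acvr2b (chromosome 9, 119402501 to 119433506) was at 3.14, 2.95 and 3.28 CPM in WT and at 4.91, 3.51 and 3.22 CPM in cKO, in the same order of libraries. Of these, cKO 8 was high and cKO 37 lay inside the WT range. The log2 value was 0.31 ± 0.17 (-0.07 to 0.69, adjusted p = 0.265) with all libraries and 0.11 without cKO 8.

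Of the BMP-type receptors, Acvr1 (chromosome 2, 58446438 to 58566828) was at 77.2, 71.8 and 76.5 CPM in WT 14, WT 27 and WT 29 and at 67.3, 72.5 and 75.0 CPM in cKO 8, cKO 10 and cKO 37. The groups overlapped, with a log2 value of -0.07 ± 0.06 (-0.21 to 0.07, edgeR adjusted p = 0.502). Acvrl1 (chromosome 15, 101128537 to 101145336) was at 37.9, 37.8 and 38.3 CPM in WT 14, WT 27 and WT 29 and at 41.7, 42.3 and 43.4 CPM in cKO 8, cKO 10 and cKO 37. Its groups did not overlap, at a 1.12-fold difference (1.03 to 1.22; log2 0.16 ± 0.06, adjusted p = 0.0838). It passed under upper-quartile factors (0.0493) and under the offset for GC content and length (0.0304).

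Beside Acvrl1, the 12 endothelial markers summed to 784 to 872 CPM in WT and 806 to 974 in cKO. Of these 12, 0 rose and 1 fell (0 without WT 29 or cKO 8), and their median log2 value was 0.06. All were detected in every library, and their part in the Acvrl1 value was not tested. In bulk tissue a different number of cells of a type and a different amount of RNA per cell cannot be told apart. Macrophage and osteoclast markers, cells that respond to activin, were lower as a sum, at 3283 to 4588 CPM in WT against 2654 to 3271 in cKO. Of 11 tested, 2 fell (Acp5 and Csf1r) and 0 rose with edgeR (5 at an unadjusted p under 0.05; 4 called by DESeq2 and 3 by limma voom), and 0 were called without cKO 8. Most of the sum was Ctsk, Mmp9 and Acp5, with WT means of 1446, 1358 and 605 CPM and cKO means of 1215, 939 and 410. The log2 value was negative in 10 of the 11 and positive in 1. Among macrophage markers, Cd68 and Csf1r were at -0.48 ± 0.16 and -0.43 ± 0.10 (edgeR adjusted p = 0.107 and 0.0191). In both, every cKO library was below every WT library. Emr1, Mrc1, Cx3cr1 and Cd163 were at -0.25 ± 0.11, -0.15 ± 0.14, -0.11 ± 0.10 and 0.06 ± 0.10, all with overlapping groups. These genes were named after their values were seen, and the part of the list in the results was not tested.

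**Figure D3:**
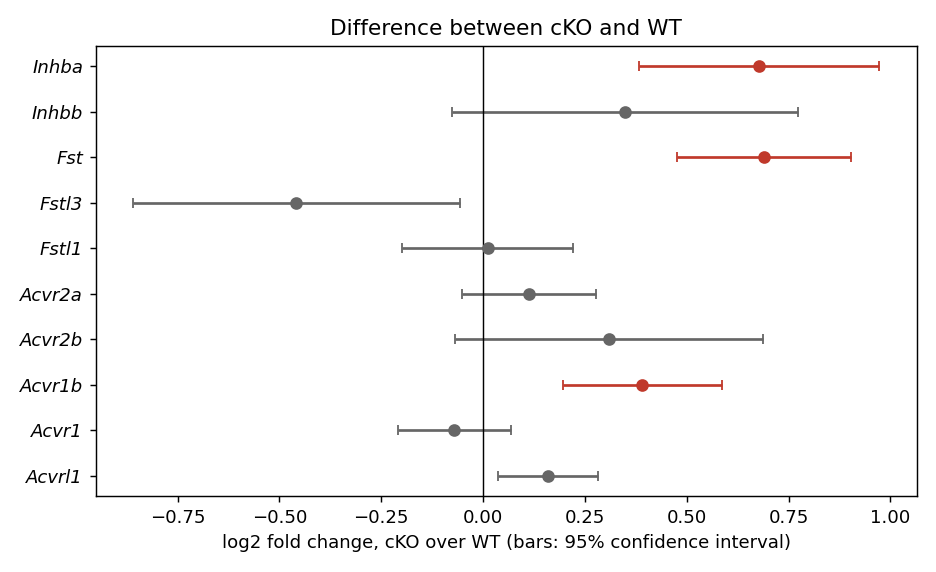
Log2 fold change of cKO over WT for each gene with its 95% confidence interval from the edgeR model (3 libraries per group); red marks the 3 genes past an adjusted p of 0.05. Fst and Inhba stand at 0.69 and 0.68, Acvr1b at 0.39, and Fstl3 is the lowest at -0.46.

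The plot without each library in turn shows which of these values rest on single samples. Fst ranged from 0.62 to 0.76, Inhba from 0.53 to 0.76 and Acvr1b from 0.32 to 0.43, all positive. For Inhba the lowest value came without WT 27, the library in which it was lowest. Inhbb ranged from 0.20 to 0.57, Acvr2b from 0.11 to 0.42 and Fstl3 from -0.59 to -0.21. Acvrl1 moved least, from 0.14 to 0.17.

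**Figure D4:**
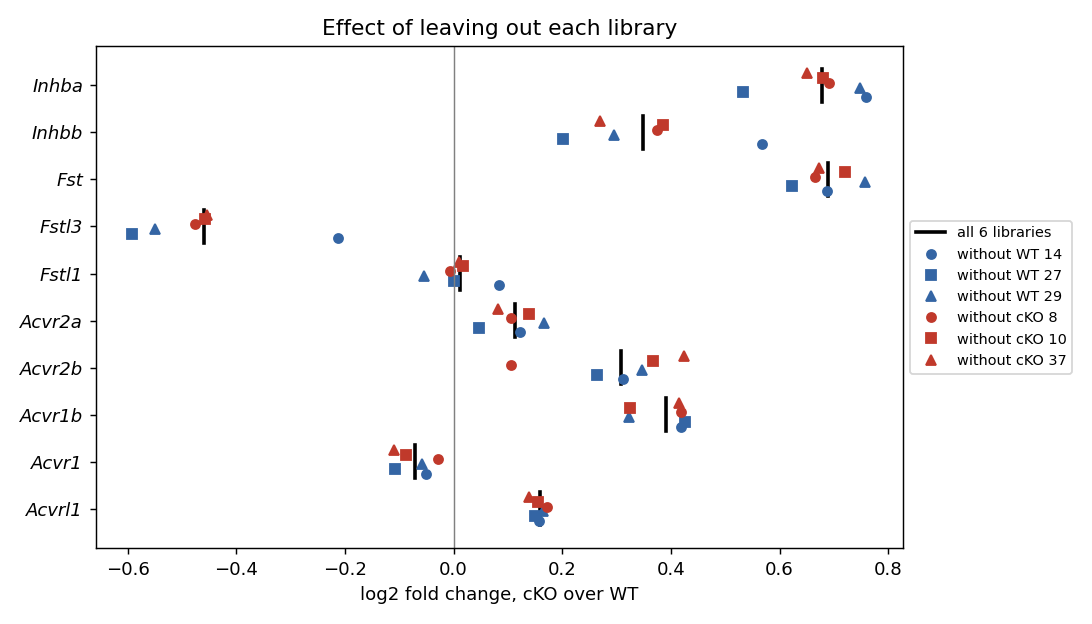
Log2 fold change of each gene with all 6 libraries (black bar) and after leaving out 1 library (blue for a WT library, red for a cKO library, shapes as in the key). Inhbb and Fstl3 move most without WT 14, to 0.57 and -0.21, and Acvr2b without cKO 8, to 0.11.

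The rest of the pathway was described with lists written from general knowledge of the family, with earlier results of these data known. Counting each gene once, 83 of 95 genes were tested, of which 1 rose, 8 fell and 74 did not pass, 10.8% called against the 12.4% of all genes. The total was 14 with DESeq2 (5 higher, 9 lower), 5 without WT 29 and 4 without cKO 8. The median log2 value was -0.03.

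Among the other ligands, 11 of 17 were tested, 0 rose and 2 fell (4 at an unadjusted p under 0.05; 3 called by DESeq2 and 1 by limma voom). Bmp6, a bone morphogenetic protein, was 9.45 ± 0.213 CPM in WT and 7.40 ± 0.532 in cKO (log2 -0.35 ± 0.10, edgeR adjusted p = 0.0383). Tgfb1, the main TGF-beta of bone matrix, was 120 ± 3.02 and 101 ± 11.1 CPM (-0.26 ± 0.08, adjusted p = 0.0497). Both calls were weak: Bmp6 was lost without any 1 of the 6 libraries (adjusted p = 0.0647 to 0.117) and Tgfb1 without any but cKO 10 (0.0879 to 0.17). Inha, whose alpha subunit pairs with the beta subunits to make inhibin, an activin antagonist, was 8.62 ± 1.06 and 11.2 ± 1.38 CPM (0.37 ± 0.12, adjusted p = 0.066). It passed with DESeq2 (0.0334), under the GC and length offset (0.0267) and when cKO 37 was left out (0.0317). Bmp7 was at -0.20 ± 0.09 (adjusted p = 0.155). Mstn, myostatin, and Gdf1, both named after their values were seen, had 0 counts in every library.

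Of 12 other receptors and co-receptors, 10 were tested and 0 passed with edgeR, DESeq2 or limma voom, also 0 at an unadjusted p under 0.05. The 4 with the smallest p were the pseudoreceptor Bambi (0.18 ± 0.09), Amhr2, the receptor of anti-Müllerian hormone (-0.47 ± 0.25), the BMP receptor Bmpr1a (0.11 ± 0.06) and the co-receptor Tgfbr3 (0.11 ± 0.07), with adjusted p from 0.217 to 0.32. Among 21 extracellular inhibitors and genes with follistatin domains, 19 were tested and 0 passed with edgeR or limma voom (3 at an unadjusted p under 0.05, 1 called by DESeq2). Sparcl1, a matrix protein related to osteonectin, was at 0.22 ± 0.08, the BMP antagonist Nog at -0.22 ± 0.08, Igsf1 at 0.38 ± 0.17 and the BMP antagonist Grem1 at 0.96 ± 0.46 (adjusted p = 0.0791, 0.105, 0.172 and 0.196). Grem1 passed without WT 14 (0.0487), and its level was under 1 CPM. The 7 convertases and latency proteins, which cut and store the ligands, had 0 calls with edgeR, DESeq2 or limma voom (1 at an unadjusted p under 0.05). The convertase genes Furin and Pcsk6 were at -0.22 ± 0.09 and -0.22 ± 0.13, and Bmp1 and Ltbp3 at -0.11 ± 0.07 and -0.10 ± 0.08.

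Inside the cell, 1 of 17 tested Smads and regulators rose and 3 fell. The inhibitory Smad gene Smad7, a feedback target of the pathway, fell from 43.4 ± 2.99 to 33.6 ± 1.77 CPM (-0.37 ± 0.07, edgeR adjusted p = 0.00867). Smad6, the inhibitory Smad of the BMP branch, fell from 45.1 ± 1.58 to 37.1 ± 2.89 CPM (-0.28 ± 0.07, adjusted p = 0.0255). Fkbp1a, the FKBP12 protein that holds type I receptors inactive, fell from 174 ± 2.88 to 142 ± 9.18 CPM (-0.29 ± 0.06, adjusted p = 0.0155). Smad5 rose from 132 ± 2.17 to 151 ± 0.625 CPM (0.20 ± 0.05, adjusted p = 0.0398). Smad7 passed without any 1 library (adjusted p = 0.00788 to 0.0473). Smad6 failed when WT 14, WT 29, cKO 8 or cKO 10 was removed (0.0627 to 0.0845), Fkbp1a without WT 29 or cKO 8 (0.0656 and 0.0794) and Smad5 without any library but cKO 37 (0.0791 to 0.127), and the list held between 1 call, without cKO 8, and 6, without cKO 37. Of 16 alternatives, Smad7 passed in 15, Fkbp1a in 13, Smad6 in 10 and Smad5 in 9. Over these, the weakest log2 values were 0.10 for Smad5 and -0.18 for Smad6. With a library left out, their weakest were 0.18 and -0.23. The signal carriers of activin itself, named after their values were seen, did not pass: Smad2 was at -0.04 ± 0.06, Smad3 at 0.03 ± 0.07 and Smad4 at -0.03 ± 0.06 (adjusted p = 0.726, 0.799 and 0.74).

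Some transcripts commonly induced by the pathway were called lower and 0 higher with edgeR on all 6 libraries and TMM scaling. Across all genes tested 6.45% were called lower, and nothing is read from these shares, as the lists were written with earlier results known. Smad7 is in both lists. Log2 values were positive in 6 and negative in 7 genes of the Smad2 and Smad3 list, and in 4 and 9 of the other. Of 13 tested that are induced through Smad2 and Smad3, 0 rose and 3 fell with edgeR, namely Junb (-0.74 ± 0.08), Bhlhe40 (-0.66 ± 0.10) and Smad7, and the list median was -0.08 (5 at an unadjusted p under 0.05; DESeq2 called 1 higher and 4 lower, limma voom 1 higher and 3 lower). Junb, which also stands in the early response list above, and Bhlhe40, a stress- and clock-linked repressor, passed in all 16 alternatives. The collagen gene Col7a1 was at 0.45 ± 0.13 (adjusted p = 0.0679) and passed with DESeq2 (0.00361), with limma voom (0.0399) and without WT 14 (0.00737). Of 13 induced through Smad1, Smad5 and Smad9, 0 rose and 3 fell with edgeR, Id2 (-0.37 ± 0.06, adjusted p = 0.00545), Smad7 and Smad6, and the median was -0.13 (4 at an unadjusted p under 0.05; DESeq2 called 1 higher and 3 lower, limma voom 0 and 3). Id2, an inhibitor of helix-loop-helix factors, was 129 ± 6.41 CPM in WT and 99.6 ± 3.89 in cKO. Smad9, a signal carrier of the BMP branch, was at 0.30 ± 0.10 (adjusted p = 0.0635). It was called higher with DESeq2 (0.0447), under upper-quartile factors (0.0487), without WT 29 (0.0403) and without cKO 37 (0.0394). The early response genes fell beside these lists, as given above, and their part in the falls was not tested.

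**Figure D5:**
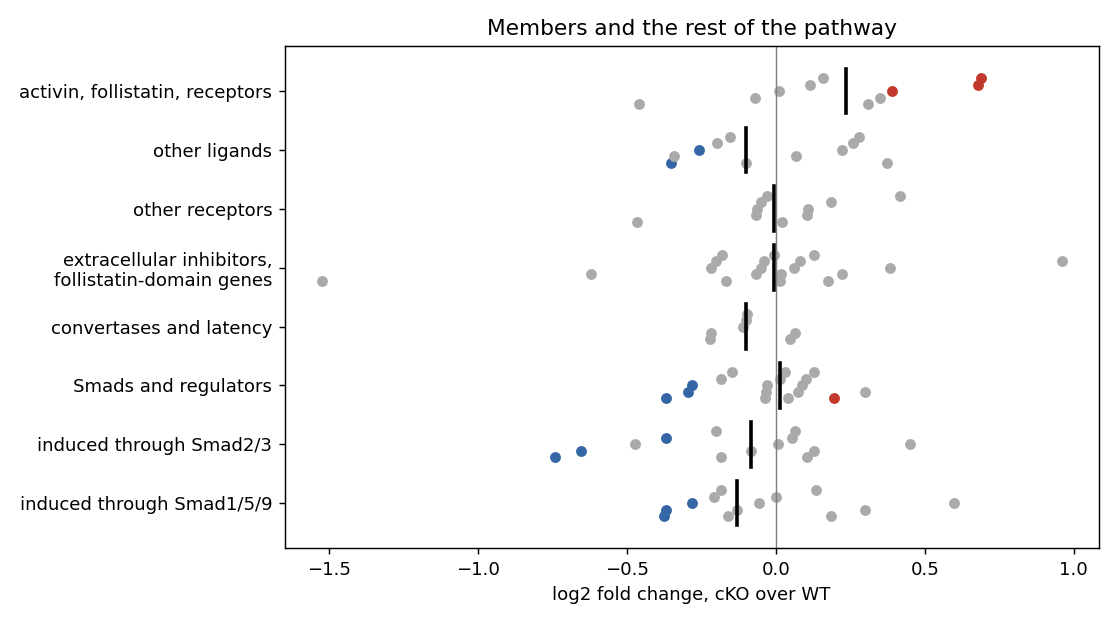
Log2 fold change of cKO over WT for the 10 genes (top row) and for the tested genes of 7 pathway lists; red and blue mark genes called higher and lower, grey the others, and the black bar the list median. The top row has a median of 0.23 and 3 red points, and the lists hold 1 red gene, Smad5. The 10 genes were chosen with this contrast known, so nothing is read from the rows side by side. The point at -1.53 is Spock1, named after its values were seen, which was 38 CPM in WT 14 and between 4.6 and 6.87 in the other libraries.

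The genes whose levels were most like those of Fst over the 6 libraries were Naalad2, Zfp715, N4bp2l1, Crebzf and Jmy, with Pearson correlations of log2 CPM from 0.995 to 0.998 among 12489 genes compared. All 5 were called higher in cKO, by 0.25 to 1.03 on the log2 scale. The points share the libraries and the difference between the groups, and 311 of the genes compared had a correlation above 0.95, so the match is a description of 6 values.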

How the data were processed

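Calvaria RNA-seq libraries, 6 in all (3 cKO, 3 WT), were analysed from the gene table deposited by the authors. Per the submitters' processing notes, reads were made with bcl2fastq, aligned to mm10 with TopHat2 2.0.6 and counted with HTSeq; the annotation, parameters and strand setting were not stated. Deposited counts are whole numbers per gene, and every one is even (0 odd), and the RPKM deposited by the authors are those counts divided by gene length and by a library total above the gene total. RPKM were used only for levels between genes.

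Counts were tested as deposited with the robust quasi-likelihood F test of edgeR 4.0.16 in R 4.3.3: filterByExpr (minimum count 10), TMM scaling and Benjamini-Hochberg adjustment over all 16089 genes, threshold 0.05. TMM factors were 0.9519 to 1.072. Standard errors and 95% intervals come from that model. The members and lists were chosen with earlier results of these data known. Named were all 10 members, Ezh2, the 4 genes with the smallest p of each pathway list and the 5 genes most like the member with the largest difference; others are marked as chosen after their values were seen. Alternatives were RLE and upper-quartile scaling, no filter, a mean CPM of at least 1, DESeq2 1.42.0, limma voom (limma 3.58.1), an adjusted p under 0.1, glmTreat against 1.2-fold, halved counts and each library left out; a GC and length offset was added after seeing the data (90.1% of tested genes and all 10 members had a value). Motifs were searched on both strands. No per-sample column was left unused, and 69 rows that share a gene identifier were kept apart by position. The scripts were tested on simulated data.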

Additional observations from a re-analysis of the deposited data

How the results depend on the processing

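Of the 10 members, 3 were called in all 6 libraries and 1 (Fst) against a fold change of 1.2, and 2 to 4 when 1 library was left out; at an adjusted p under 0.1, under upper-quartile factors and under the GC and length offset there were 4, Acvrl1 being the added gene. All calls among the members were higher in cKO. Over all genes, 1997 were called, 3277 at an adjusted p under 0.1, 112 against 1.2-fold and 586 to 1985 with 1 library left out; 48% of the 1997 were higher in cKO, against 60.9% when scaled by upper quartiles and 33.2% under the GC and length offset. Of the pathway genes 9 were called, 14 by DESeq2, 2 against 1.2-fold and 4 to 13 with 1 library left out. Signs turned only near 0: Fstl1 (-0.054 without WT 29 to 0.084 without WT 14, -0.0061 without cKO 8, -0.0062 with the offset), Acvr2a (-0.022 with the offset) and Ltbp3 (0.0048 with the offset). The cause was not tested, beyond fewer libraries in the fits without 1 of them. No paired analysis was possible because the WT and cKO labels share no replicate number. Fstl3 and Acvr2b had the lowest counts of the members, at 200 to 432 and 206 to 302 per library as deposited, which are all even. The part of depth in their spread was not tested.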
